A study of Mus musculus with 11 samples.

Results

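Haemoglobin chains and late products of red cell maturation were followed in RNA of eosinophils sorted from mouse blood. The set holds 9 of the 55486 genes in the deposited count table, taken by gene symbol: the alpha-globin genes Hba-a1 and Hba-a2, the beta-globin genes Hbb-bs and Hbb-bt, the haem synthesis genes Alas2 and Fech, the membrane transporter gene Slc4a1, the red cell enzyme gene Bpgm and the ubiquitin ligase gene Mkrn1. They were selected on their counts in these 11 libraries, whose spread among the control mice was already known, so their levels and their contrast between the groups are a description and carry no test of their own. All 9 passed the filter on low counts and were among the 11389 genes tested.

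The study asked how chemotherapy with checkpoint blockade alters eosinophil expression in mice of the FVB/N strain that carried metastases of mammary tumours. The treated group was 7 mice given cisplatin, a DNA-crosslinking drug, with anti-PD1 and anti-CTLA4, antibodies that block inhibitory receptors of T cells. The control group was 4 mice given control antibody alone, so the groups differ in the drug as well as in the antibodies. Blood of both groups was drawn from the heart at day 21 of treatment, its red cells were lysed, and eosinophils were sorted as live CD45+ CD11b+ F4/80+ cells that lacked CD3, stained weakly for Ly6g and had high side scatter. Libraries were made with the Smart-seq2 protocol, which reads whole transcripts of small RNA samples, and each came from another mouse.

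Red cells carry oxygen on haemoglobin, a tetramer of alpha and beta chains that each hold a haem group. Late erythroblasts devote most of their transcription to these chains, then lose the nucleus and enter blood as reticulocytes, which keep globin RNA for a short time, while mature red cells make no new RNA. Eosinophils are white cells that arise from the bone marrow under the transcription factor GATA1, which erythroid cells and platelet precursors also need, and are not known for haemoglobin production.

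Treated libraries held 5356118 to 8016658 counts and control libraries 3733156 to 6721060 counts. Control 3 and control 4 stood apart from the other 9 libraries, with 10775 and 11263 detected genes against 12639 to 15557. They also had the smallest totals, 3733156 and 3923906 counts, and the highest shares of mitochondrial counts, 3.33% and 3.74% against 0.812% to 2.80%. The part of these differences in the results was not tested. Siglecf, which encodes an eosinophil lectin, was found in all libraries, at 309 to 866 counts per 1000000 (CPM) in treated and at 751, 977, 242 and 391 CPM in control 1 to control 4, and Ccr3, the eotaxin receptor gene, at 1027 to 4753 CPM in treated and 1574 to 4064 CPM in control libraries. The granule gene Epx was at 0 in treated 3. Sample identifiers in the table header begin with 19 in all treated and with 20 in all control libraries. Those of control 3 and control 4 are consecutive, as are those of control 1 and control 2. The same holds for treated 2 and treated 3, and for treated 5 and treated 6. No source used here says what the identifiers stand for, and whatever the 19 and 20 mark cannot be told apart from treatment.

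The globin genes come in near-identical pairs, which sets how far single copies can be read. Over 429 coding bases Hba-a1 and Hba-a2 differ in GRCm38 by C381T alone, and over 444 coding bases Hbb-bs and Hbb-bt differ by C417T alone. Positions count from 1 at the A of the start codon, with the base of Hba-a1 or Hbb-bs given first. The 4 stretches of exon 3 below show these differences, with the differing base in capitals, at chr11:32284329-32284358 (+ strand) for Hba-a1, chr11:32297146-32297175 (+ strand) for Hba-a2, chr7:103826677-103826706 (- strand) for Hbb-bs and chr7:103812668-103812697 (- strand) for Hbb-bt.
Hba-a1: catgcctctctggaCaaattccttgcctct
Hba-a2: catgcctctctggaTaaattccttgcctct
Hbb-bs: gtggctggagtggcCgctgccctggctcac
Hbb-bt: gtggctggagtggcTgctgccctggctcac
Translated, the coding sequences of each pair give identical proteins, of 142 residues for alpha and 147 for beta. Of all 50-base windows in the transcripts, 439 are shared by Hba-a1 and Hba-a2, which is 67.5% of those in Hba-a1 and 86.9% of those in Hba-a2. Hbb-bs and Hbb-bt share 381 windows, 65.8% of those in Hbb-bs and 58.3% of those in Hbb-bt. No source used here names the counting program or its rule for reads that match several places, and the reference is of the C57BL/6J strain and not FVB/N, so the split within each pair is uncertain, while the sum of each pair is less exposed to it.

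Promoter windows are shown for members that moved together across the libraries. RefSeq starts (GRCm38.p6) gave 8 windows of 120 bases upstream for 7 of the 9 members, all but Slc4a1 and Fech. Only Mkrn1 had more than 1 window. Both strands were searched for 4 motifs, and capitals mark a match on either strand. They are TATAA for the TATA box, CCAAT for the box of that name, CACCC for the sites of KLF factors and GATAA for the sites of GATA factors. The alpha-globin windows share a run of 117 bases, so 1 of them is printed: chr11:32296372-32296491 (+ strand) for Hba-a2, then chr7:103827929-103828048 (- strand) for Hbb-bs, chr7:103813924-103814043 (- strand) for Hbb-bt and chrX:150547297-150547416 (+ strand) for Alas2.
Hba-a2: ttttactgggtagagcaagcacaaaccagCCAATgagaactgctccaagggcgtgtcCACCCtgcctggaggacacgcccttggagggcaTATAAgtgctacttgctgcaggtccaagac
Hbb-bs: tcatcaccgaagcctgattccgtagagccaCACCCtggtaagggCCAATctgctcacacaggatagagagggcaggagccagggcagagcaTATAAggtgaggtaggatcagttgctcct
Hbb-bt: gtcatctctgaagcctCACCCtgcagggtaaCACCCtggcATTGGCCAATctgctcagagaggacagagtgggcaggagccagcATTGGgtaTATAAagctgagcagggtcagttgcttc
Alas2: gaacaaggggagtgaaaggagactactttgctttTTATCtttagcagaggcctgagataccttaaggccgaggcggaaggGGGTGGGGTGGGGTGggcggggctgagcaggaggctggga
TATAA stood in 4 of the 7 matched members, the globin genes, against 11.8% of 32851 windows of the same length. CCAAT stood in 5 of 7, against 21.3% of windows, and CACCC in 6 of 7, against 31.7%. A member counted with a match in any of its windows, while the percentages are over single windows. The CACCC match of Mkrn1 lay in only 1 of its windows. GATAA was in 1 of 7, Alas2, on the reverse strand, against 10.5% of windows. No matches share a base: the CACCC matches of Alas2 on the reverse strand lie end to end, as do a pair of CCAAT matches on opposite strands in Hbb-bt.

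In the control group the 4 globin genes together spanned a wide range, and the treated libraries fell inside it. They took 1.16% to 4.42% of all counts in the 7 treated libraries (median 2.67%), against 1.06%, 0.165%, 28.2% and 20.1% in control 1, control 2, control 3 and control 4. The lowest treated library, treated 7, had a 95% Wilson interval of 1.152 to 1.167%, above that of control 1 at 1.051 to 1.067%. Every treated library thus lay above control 1 and control 2 and below control 3 and control 4. These intervals cover counting error only, since the reads carry no molecular identifiers. With the other 5 members added, the share was 1.35% to 4.98% in treated libraries and 1.147%, 0.190%, 29.9% and 21.6% in control 1 to control 4. The mean globin share was 2.53% in treated and 12.4% in control libraries, a difference of -9.85 percentage points, and without control 3 and control 4 the difference was 1.92 percentage points. In bulk RNA, fewer cells of a type and less RNA per cell cannot be told apart.

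**Figure D1:**
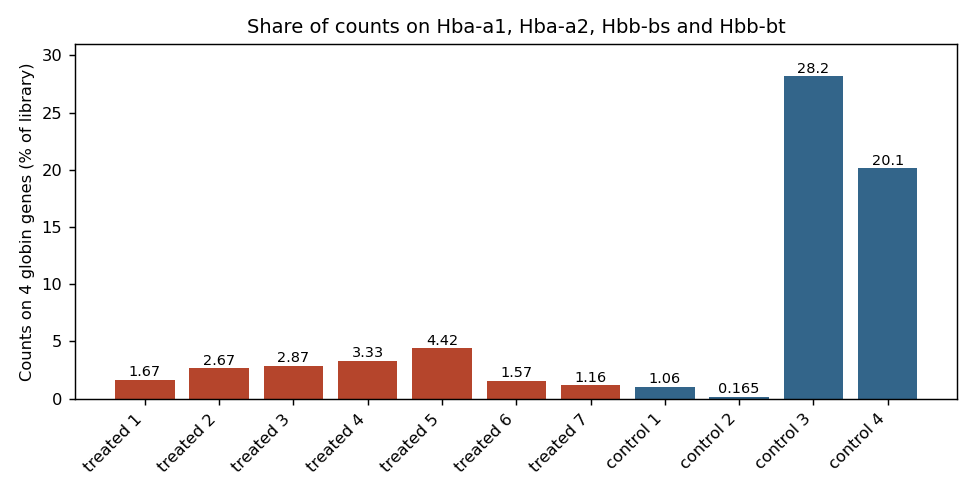
Share of all counts on Hba-a1, Hba-a2, Hbb-bs and Hbb-bt (y axis, percent of the library) in each library, 7 treated on the left and 4 control on the right, 1 bar per library with no error bar. The treated bars run over 1.16% to 4.42%, while the control bars are 1.06%, 0.165%, 28.2% and 20.1%.

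Alpha-globin RNA was nearly all counted on 1 copy. Hba-a1 stood at 7108 to 24666 CPM in treated libraries (median 11655 CPM), with CPM of single genes scaled by TMM, a factor that corrects for library composition. In control 1 to control 4 Hba-a1 stood at 4943, 865, 188894 and 133834 CPM. The treated libraries lay between the lower and the upper pair of control values, and the highest control value was 218 times the lowest. Hba-a2 stood at 5.33 to 62.7 CPM (median 28.2 CPM) in treated libraries, against 7.20, 0.705, 773 and 452 CPM in control 1 to control 4. Treated 7, at 5.33 CPM, was below control 1, and control 2 had only 5 counts, so its ratio of 1096 to the highest control is imprecise. Hba-a1 held 99.6% to 99.9% of alpha counts in treated and in control libraries alike, although the coding sequences differ by 1 base, as shown above.

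Beta-globin RNA ranged as widely, with a stable leading copy. Hbb-bs stood at 3878 to 16780 CPM in treated libraries (median 10193 CPM), against 3676, 589, 208991 and 137874 CPM in control 1 to control 4. Hbb-bt stood at 483 to 1915 CPM (median 1273 CPM) in treated libraries, against 368, 52.0, 21022 and 14037 CPM in control 1 to control 4. The order of libraries was like that of Hba-a1, with control 2 lowest and control 3 highest, and the highest control value exceeded the lowest 355 times for Hbb-bs and 404 times for Hbb-bt. Scaled to the library total in place of TMM, treated 7 no longer lay above control 1 for Hbb-bs.

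The split between the beta copies differed between the groups without overlap. Hbb-bs held 85.3% to 89.8% of beta counts in treated libraries (mean 88.3% ± 1.59, SD, n = 7), against 90.9%, 91.9%, 90.9% and 90.8% in control 1 to control 4 (mean 91.1% ± 0.525, SD, n = 4). The closest libraries were treated 4, at 89.8% with a 95% Wilson interval of 89.7 to 90.0%, and control 4, at 90.8% with one of 90.7 to 90.8%. The difference of means was -2.80 percentage points, -3.06 to -2.30 with any 1 library left out and -3.09 without control 3 and control 4. Unlike the levels, this share in control 3 and control 4 lay beside that of control 1. It was computed from the members' own counts and is given as a description with no test. It rests on reads that tell Hbb-bs from Hbb-bt in mice that are not of the reference strain. Treatment cannot be told apart here from whatever the first digits of the sample identifiers mark.

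Alpha counts were 49.0% to 63.1% of globin counts in treated libraries (mean 54.3% ± 4.84, SD, n = 7), against 55.0%, 57.5%, 45.2% and 46.9% in control 1 to control 4 (mean 51.2% ± 6.01, SD, n = 4). The groups overlapped, and control 3 and control 4 were lower than any treated library. The difference of 3.10 percentage points became -2.001 without these controls.

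**Figure D2:**
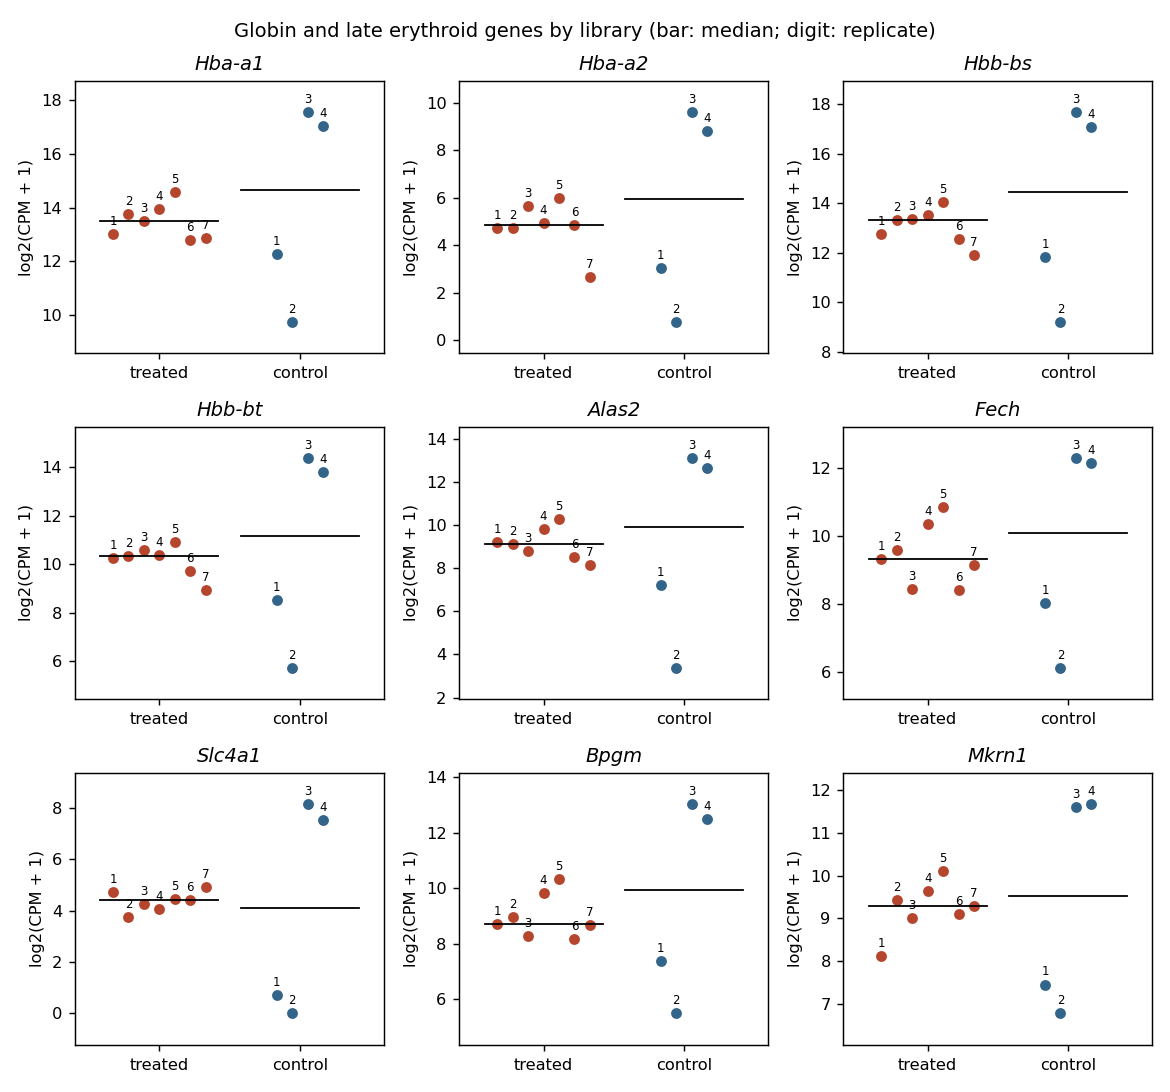
Level of each of the 9 genes (y axis, log2 of TMM-scaled CPM plus 1) in the treated libraries, left, and the control libraries, right, 1 point per library with its replicate number and a bar at the group median. In every panel control 3 and control 4 are the highest points and control 2 the lowest, and for all but Hba-a2 the 7 treated points lie between the lower and upper pair of controls.

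Both haem synthesis genes gave the control libraries in the same order as the globin genes. Alas2, which encodes the erythroid form of the enzyme for the first and rate-limiting step, stood at 288 to 1248 CPM in treated libraries (median 566 CPM), against 148, 9.45, 8867 and 6385 CPM in control 1 to control 4. Its highest control value was 939 times the lowest. Fech, ferrochelatase, inserts iron in the last step of haem synthesis in all cells and stood at 334 to 1823 CPM in treated libraries (median 630 CPM), against 257, 68.2, 4977 and 4534 CPM in control 1 to control 4. Its control range, 72.9-fold, was narrower than that of Alas2. Per 1000 globin counts, Alas2 had 18.6 to 36.5 counts in treated libraries and 16.4, 6.27, 21.1 and 22.3 in control 1 to control 4. Per 1000 globin counts, Fech had 14.4 to 47.3 counts in treated libraries and 28.5, 45.3, 11.9 and 15.8 in control 1 to control 4. Relative to globin, Alas2 was lowest in control 2, where Fech was among the highest.

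Slc4a1 encodes band 3, the anion exchanger that is the main membrane protein of red cells. It stood at 12.6 to 29.7 CPM in treated libraries (median 20.4 CPM), against 0.632, 0, 284 and 185 CPM in control 1 to control 4. Control 1 had 5 counts and control 2 had none, and 0 counts allows up to 0.423 CPM in that library (3 counts). Control 3 was thus at least 672-fold and the lowest treated library at least 29.8-fold above control 2. Slc4a1 was the steadiest member among the treated libraries, with 2.36 times between the lowest and the highest, against 3.47 to 11.8 times for the other members. Per 1000 globin counts it had 0.482 to 2.51 counts in treated libraries and 0.0703, 0, 0.677 and 0.648 in control 1 to control 4.

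Bpgm makes 2,3-bisphosphoglycerate, the red cell metabolite that lowers the oxygen affinity of haemoglobin. It stood at 287 to 1282 CPM in treated libraries (median 414 CPM), against 166, 44.0, 8338 and 5706 CPM in control 1 to control 4. Relative to globin its controls differed less, with 12.9 to 34.3 counts per 1000 globin counts in treated libraries and 18.4, 29.2, 19.9 and 19.9 in control 1 to control 4. Its highest control level was 190 times the lowest, against 1.58 times relative to globin, where control 2 lay apart from the other controls.

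Mkrn1, a RING-type E3 ubiquitin ligase made in many cell types, had the narrowest control range of the 9 genes, 29.7-fold. It stood at 278 to 1099 CPM in treated libraries (median 629 CPM), against 175, 109, 3096 and 3246 CPM in control 1 to control 4. Per 1000 globin counts it had 16.9 to 53.2 counts in treated libraries and 19.5, 72.6, 7.38 and 11.3 in control 1 to control 4. The share was highest in control 2, the library with the least globin, and lowest in control 3, the one with the most.

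**Figure D3:**
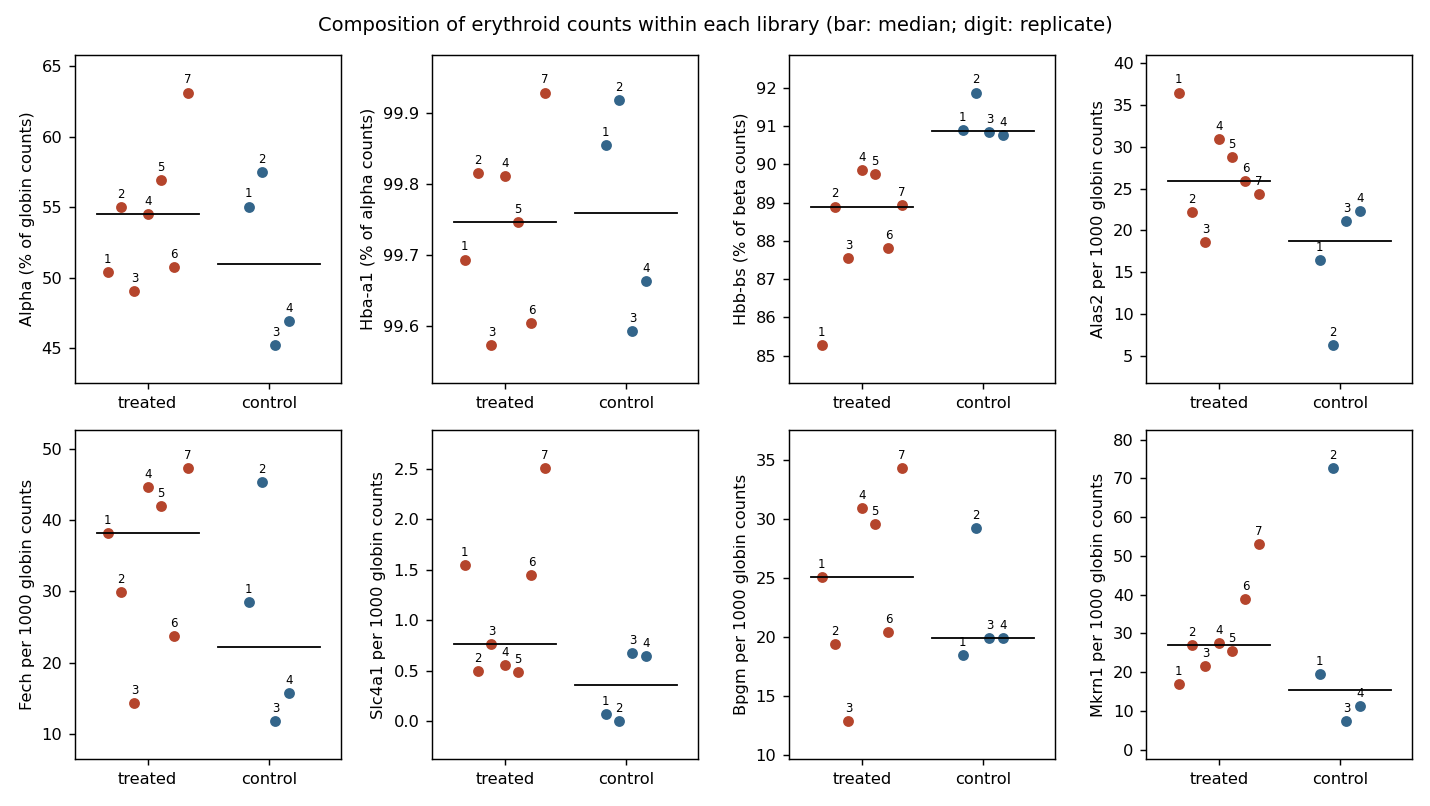
Composition of the erythroid counts in each library, treated on the left and control on the right of each panel, with alpha as percent of globin, Hba-a1 as percent of alpha, Hbb-bs as percent of beta, and the other members as counts per 1000 globin counts (y axes). Points are libraries with their replicate number and bars are group medians; only in the Hbb-bs panel do all treated points, 85.3% to 89.8%, lie below all control points, 90.8% to 91.9%.

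Per kilobase of annotated exons, the treated means ran in the order Hba-a1 (15647 CPM per kb), Hbb-bs (12352), Hbb-bt (1742), Alas2 (262), Bpgm (163), Mkrn1 (147), Fech (59.3), Hba-a2 (48.7) and Slc4a1 (4.19). Hba-a1 and Hbb-bs lay within their spread of each other, as did Alas2 and Bpgm, Bpgm and Mkrn1, and Fech and Hba-a2, while the other neighbours were further apart than the larger of their SDs. The control means per kilobase were 101150 for Hba-a1, 114300 for Hbb-bs, 12617 for Hbb-bt, 1603 for Alas2, 993 for Bpgm, 373 for Mkrn1, 178 for Fech, 462 for Hba-a2 and 24.0 for Slc4a1. All 9 control SDs exceeded their means. Fech has 13838 bases of annotated exons, which lowers its value per kilobase.

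Over the 9 genes the same controls stood at the top and at the bottom, while the order of the treated libraries differed between members. Control 3 and control 4 were above the other 9 libraries for 9 of 9 members, against 611 of 11389 genes (5.36%). Control 2 was the lowest library for 9 of 9, against 915 genes (8.03%). All treated libraries lay between the lower and upper pair of controls for 8 of 9 members, against 187 genes (1.64%), and for 7 of 9 with CPM of the library total. Since the members were chosen for their spread among the controls, these counts describe the choice.

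None of the 9 members was called in either direction at an adjusted p below 0.05, and neither was any of the 11389 genes (0% called higher and 0% called lower by edgeR's quasi-likelihood test with Benjamini-Hochberg adjustment). At an unadjusted p below 0.05 stood 6 of 9 members and 777 of all genes (6.82%). DESeq2 also called 0 of 9 members, with 60 genes called higher (0.277%) and 22 lower (0.102%) of 21666, and limma-voom with quality weights called 0 members, with 6 of 9 above 0 and a median of 0.11. The log2 fold changes, treated minus control, were -2.69 ± 0.956 for Hba-a1, -3.24 ± 1.1496 for Hba-a2, -3.21 ± 1.02 for Hbb-bs and -2.86 ± 1.01 for Hbb-bt (SE). They were -2.61 ± 1.08 for Alas2, -1.58 ± 0.877 for Fech, -2.51 ± 1.18 for Slc4a1, -2.61 ± 0.984 for Bpgm and -1.35 ± 0.748 for Mkrn1 (SE), with adjusted p from 0.626 to 0.799 by edgeR.

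Without control 3 and control 4 all 9 values changed sign, to 2.16 for Hba-a1, 3.06 for Hba-a2, 2.18 for Hbb-bs, 2.57 for Hbb-bt, 3.03 for Alas2, 2.37 for Fech, 2.51 for Bpgm and 2.23 for Mkrn1, with adjusted p from 0.0644 to 0.383 and 0 of 9 called by edgeR. None of the 13012 genes tested there was called (0% in either direction), and 9 of 9 members and 1115 genes (8.57%) had an unadjusted p below 0.05. Control 3 and control 4 held the highest levels of every member. Leaving them out was therefore bound to raise each value, and these p-values support nothing. Slc4a1 gave 5.93, against 2 controls that hold 5 and 0 counts. The members' median, -2.61 with all libraries, was -1.73 without control 3 alone and -2.26 without control 4 alone. The sign of every member thus turned on 2 of the 4 control libraries.

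**Figure D4:**
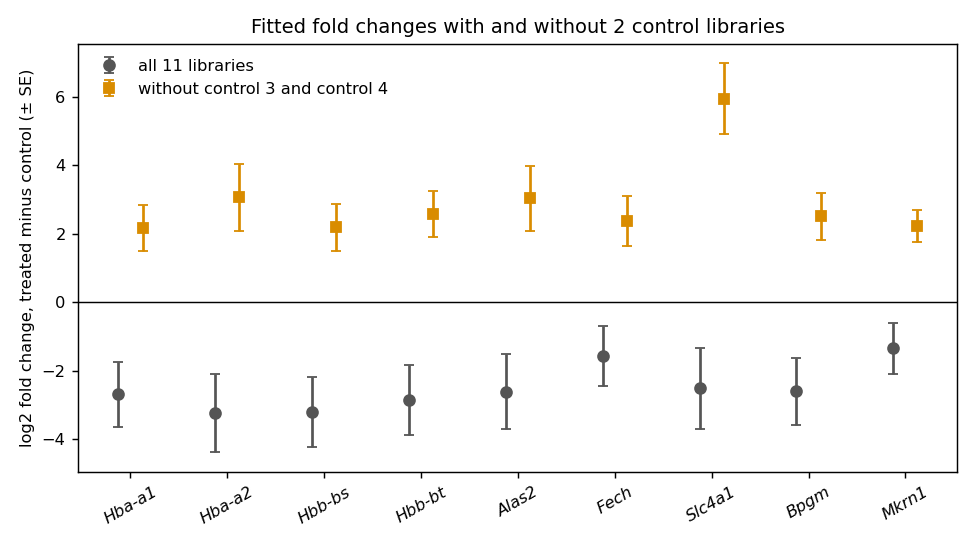
Log2 fold change of each member, treated minus control (y axis), with bars of 1 SE, fitted by edgeR on all 11 libraries (grey circles) and without control 3 and control 4 (orange squares). The circles lie at -3.24 to -1.35 and the squares at 2.16 to 5.93.

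Within the treated group the major globin genes varied together from mouse to mouse. Levels of 12 genes, the 8 other members and 4 markers of platelets, B cells and eosinophils, were related to Hbb-bs over the 7 treated libraries as log2(CPM + 1). Since the members were selected on libraries that include these, and all share their library totals, the values describe these libraries and carry no test. Hba-a1 gave r = 0.932 and rho = 0.964, and Hbb-bt gave r = 0.958 and rho = 0.964. Hba-a2 gave r = 0.895 and rho = 0.857, and Alas2 gave r = 0.885 and rho = 0.857.

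Without treated 5 and treated 7, the libraries farthest from the median of Hbb-bs, r was 0.969 for Hba-a1, 0.883 for Hbb-bt, 0.573 for Hba-a2 and 0.637 for Alas2. The higher values of Hba-a2 and Alas2 thus rest on these 2 libraries. In the 6 treated libraries whose identifiers share the letters VIS, r was 0.936 for Hba-a1, 0.985 for Hbb-bt, 0.907 for Hba-a2 and 0.911 for Alas2. The remaining treated library and all controls carry KDV.

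The other members followed Hbb-bs less closely among the treated mice. Bpgm gave r = 0.688 and rho = 0.714, Fech r = 0.614 and rho = 0.714, and Mkrn1 r = 0.560 and rho = 0.821. Slc4a1 had the opposite sign, r = -0.594 and rho = -0.714, with its highest level in treated 7, the library lowest in Hbb-bs. Among the markers Pf4 gave r = 0.466 and rho = 0.286, Ppbp r = 0.394 and rho = 0.214, Ighm r = 0.294 and rho = 0.107, and Siglecf r = 0.143 and rho = 0.571.

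**Figure D5:**
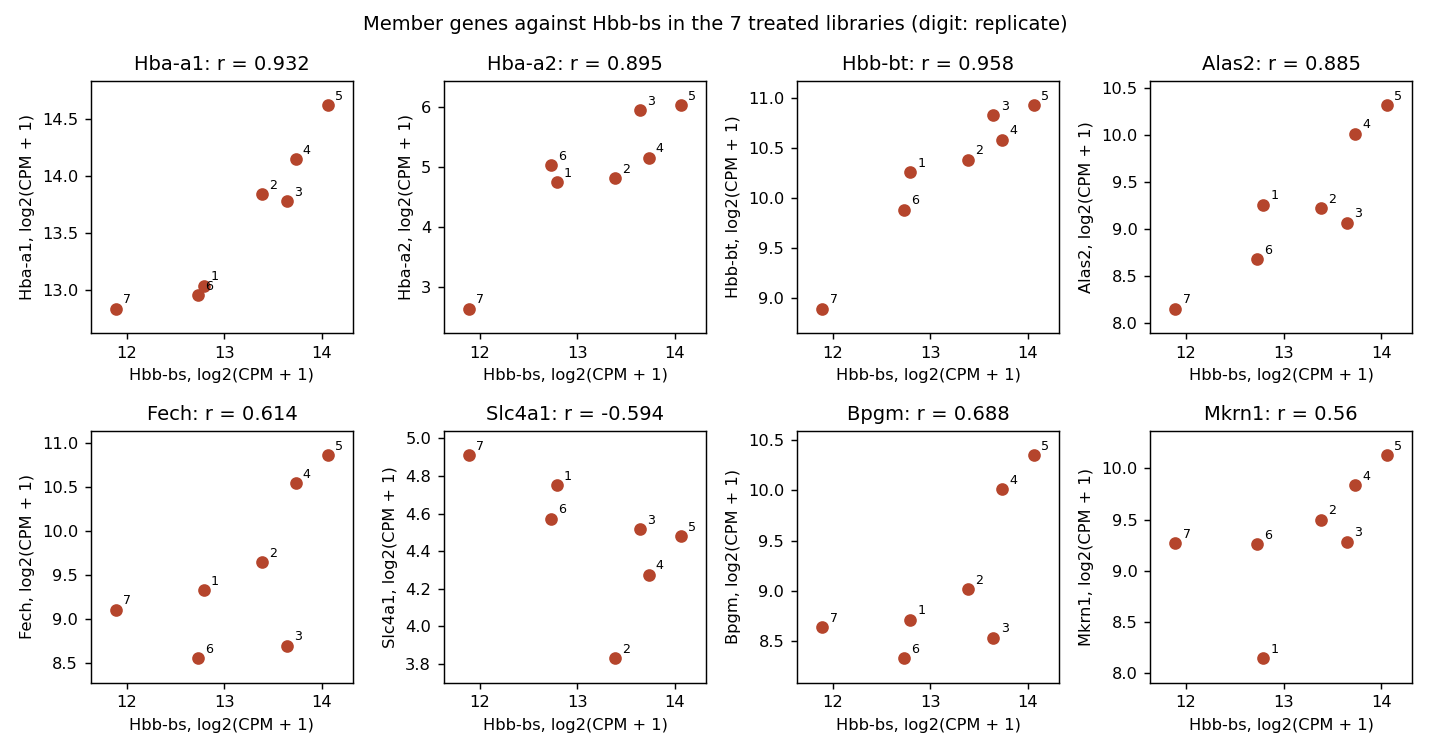
Each other member (y axes) against Hbb-bs (x axes), both as log2(CPM + 1), in the 7 treated libraries, 1 point per library with its replicate number and Pearson's r above each panel. The points rise along a line for Hba-a1 (0.932) and Hbb-bt (0.958), scatter for Fech, Bpgm and Mkrn1, and fall for Slc4a1 (-0.594).

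Other genes of red cell development were taken from 6 lists, of which 94 of 97 genes were in the table and 76 were tested. Of these, 63 had a log2 fold change below 0, with a median of -0.79 beside 0.03 over all genes, and 0 were called by edgeR (lowest adjusted p = 0.626; 15 had an unadjusted p below 0.05). Control 3 and control 4 were the highest libraries for 38 of the 76, against 5.36% of all genes. The lists were drawn up with results on these libraries known and are no independent evidence of a direction.

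Of the other haemoglobin genes, 2 were tested and 0 called, both theta-like. Hbq1b stood at 2.99 to 18.2 CPM in treated libraries, against 1.52, 0, 131.7 and 54.7 CPM in control 1 to control 4. Hbq1a stood at 2.46 to 10.5 CPM in treated libraries, against 0, 0, 51.1 and 55.0 CPM in control 1 to control 4. The embryonic genes Hba-x and Hbb-bh1 were at 0 in every library. Hbb-y was at 0 in all but treated 1 (0.123 CPM) and treated 6 (0.668 CPM). Hbb-bh2 was at 0 in all but treated 2 (0.472 CPM) and control 4 (1.81 CPM).

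Of the other genes of haem synthesis and mitochondrial iron import, 13 were tested, 9 lay below 0 (median -0.39) and 0 were called. Slc25a37, mitoferrin-1, the mitochondrial iron importer of erythroid cells, stood at 94.4 to 333 CPM in treated libraries, against 103, 34.5, 1159 and 754 CPM in control 1 to control 4. As for the globin genes, control 3 and control 4 were highest and control 2 lowest. For the form of the first enzyme found in all cells the controls lay closer together: Alas1 stood at 67.2 to 338 CPM in treated libraries, against 167, 156, 250 and 234 CPM in control 1 to control 4. Tmem14c, a mitochondrial protein needed for erythroid haem synthesis, stood at 45.5 to 81.3 CPM in treated libraries, against 60.2, 72.3, 104 and 71.7 CPM in control 1 to control 4. Without control 3 and control 4, 5 of 13 lay below 0 and 0 were called.

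Of the red cell membrane and skeleton genes, 17 were tested, 14 lay below 0 (median -1.50) and 0 were called. Bsg, basigin, a chaperone of lactate transporters, stood at 133 to 219 CPM in treated libraries, against 228, 199, 440 and 305 CPM in control 1 to control 4. Add1, adducin alpha, a cap of the spectrin skeleton, stood at 221 to 449 CPM in treated libraries, against 189, 299, 203 and 285 CPM in control 1 to control 4. The glucose transporter gene Slc2a1 stood at 64.7 to 195 CPM in treated libraries, against 129, 107, 51.1 and 168 CPM in control 1 to control 4. These are the most abundant per kilobase of the list, and of them only Bsg was highest in control 3 and control 4. Without these controls 3 of 19 tested lay below 0 and 0 were called.

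Of the erythroid regulators and receptors, 13 were tested, 10 lay below 0 (median -0.28) and 0 were called. Gata1 stood at 186 to 415 CPM in treated libraries, against 290, 343, 141 and 298 CPM in control 1 to control 4. Gfi1b, a repressor of the erythroid and megakaryocyte lines, stood at 63.9 to 375 CPM in treated libraries, against 180, 163, 116 and 135 CPM in control 1 to control 4. Nfe2, a factor of platelet and globin gene expression, stood at 163 to 266 CPM in treated libraries, against 340, 245, 176 and 190 CPM in control 1 to control 4. The highest library of each of these 3 regulators was neither control 3 nor control 4. Of the 13 tested, 2 had control 3 and control 4 above all other libraries, Tal1 and E2f2. Without these controls 5 of 14 tested lay below 0 and 0 were called.

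Of the genes of reticulocyte maturation, 20 were tested, 18 lay below 0 (median -1.06), 0 were called, and 15 were highest in control 3 and control 4. Ubb, a polyubiquitin gene, stood at 806 to 2085 CPM in treated libraries, against 1703, 1661, 2939 and 2861 CPM in control 1 to control 4. Ube2l6, a ubiquitin and ISG15 conjugating enzyme gene, stood at 557 to 1547 CPM in treated libraries, against 1567, 966, 3794 and 3970 CPM in control 1 to control 4. Both were highest in control 3 and control 4, over a much narrower range than the globin genes. Without control 3 and control 4, 3 of 20 lay below 0 and 0 were called.

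Of the red cell enzyme and redox genes, 12 were tested, 10 lay below 0 (median -0.56) and 0 were called. Gpx1, glutathione peroxidase, stood at 2019 to 2821 CPM in treated libraries, against 2479, 3928, 4917 and 3756 CPM in control 1 to control 4. Cat, catalase, stood at 373 to 1201 CPM in treated libraries, against 476, 659, 1032 and 1117 CPM in control 1 to control 4. Prdx2, the peroxiredoxin abundant in red cells, stood at 97.0 to 354 CPM in treated libraries, against 43.6, 34.5, 1337 and 797 CPM in control 1 to control 4. Of Gpx1, Cat and Prdx2, only Prdx2 had its controls in the order of the globin genes, with the treated libraries between the lower and upper pair. Its treated libraries stood in another order than those of Hbb-bs. Of the 12 tested, 6 were highest in control 3 and control 4. Without control 3 and control 4, 3 of 13 tested lay below 0 and 0 were called.

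Among the tested genes most like the mean log2 CPM of the 4 globin genes over the 11 libraries were Slc25a37 (r = 0.977), Isg20 (0.976), Cox6b2 (0.969), Ube2o (0.968), Prdx2-ps1 (0.968), Pabpc1 (0.967), Prdx2 (0.965), Psme3 (0.963) and Epb41 (0.962). Of these Ube2o encodes an enzyme that tags ribosomal proteins for removal in reticulocytes, and Epb41 encodes a protein of the red cell membrane skeleton. Prdx2-ps1 is named as a pseudogene of Prdx2 and may share its reads. These r values describe libraries of unequal globin share that lie in separate groups, and carry no p. Of 11380 genes that are no members, 79 had an r over 0.9 over the 11 libraries.

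Over the 7 treated libraries alone the most alike genes were Uso1 (r = 0.980), Ubox5 (0.971), Gm45716 (0.964), Ehmt2 (0.962) and Asf1b (0.960). Over all 11 libraries their r was 0.467 for Uso1, 0.385 for Ubox5, 0.916 for Gm45716, -0.0152 for Ehmt2 and -0.342 for Asf1b, and 24 of 11380 genes had an r over 0.9 in the treated libraries. Neither list holds a gene of the other.

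Markers of other blood cells varied between the same libraries. The 13 platelet genes, all tested, summed to 1023 to 3723 CPM of the library total in treated libraries, against 507, 304, 8442 and 7461 CPM in control 1 to control 4. Of these 13, 11 were highest in control 3 and control 4 and 10 lowest in control 2, where Gp1ba and Gp1bb were at 0, and 0 were called. Pf4, platelet factor 4, stood at 114 to 587 CPM in treated libraries, against 58.3, 41.3, 2395 and 1816 CPM in control 1 to control 4. The platelet genes thus ran with the globin genes across the controls, while among treated mice the r with Hbb-bs was 0.466 for Pf4 and 0.394 for Ppbp. Their part in the result was not tested.

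Other marker lists gave other orders. Sums of a list are CPM of the library total, while single genes are TMM-scaled. The 10 B cell genes, all tested, summed to 1412 to 6793 CPM in treated libraries, against 3328, 2056, 543.5 and 1144 CPM in control 1 to control 4. The 11 eosinophil genes, all tested, summed to 3741 to 10803 CPM in treated libraries, against 10967, 9192, 4989 and 4557 CPM in control 1 to control 4. In control 3 and control 4 the globin genes took 28.2% and 20.1% of the total, which lowers the share left for other genes. Both sums were lower in control 3 and control 4 than in control 1 and control 2. Single eosinophil genes differed in this: Prg2, which encodes major basic protein of the granules, stood at 27.6 to 579 CPM in treated libraries, against 656, 33.1, 2282 and 54.3 CPM in control 1 to control 4. Epx, Prg2, Prg3, Ear1, Ear2 and Ear6 had their highest control value in control 3. The 12 neutrophil genes, of which 9 were tested, summed to 5815 to 14047 CPM in treated libraries, against 6877, 12842, 9855 and 11446 CPM in control 1 to control 4. Retnlg was the largest part, at 4186, 10989, 10126 and 15592 CPM in control 1 to control 4. S100a8, S100a9, Ly6g, Ltf, Camp, Ngp, Cxcr2 and Mmp8 had their highest control value in control 3. Mpo and Elane had theirs in control 1, and Mmp9 in control 2. The 11 monocyte and macrophage genes, all tested, summed to 2031 to 17671 CPM in treated libraries, against 2165, 984, 12470 and 2754 CPM in control 1 to control 4. The 10 T and NK cell genes, of which 6 were tested, summed to 26.3 to 78.6 CPM in treated libraries, against 18.6, 34.9, 87.3 and 71.1 CPM in control 1 to control 4. No marker gene was called, and the part of these cells in the members' values was not tested.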

How the data were processed

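Counts per Ensembl gene, raw and in 1 table of 11 libraries, are what the authors deposited. GRCm38 is the build and HISAT2 2.10, SAMtools 1.15.1 and bcl2fastq 2.20.0.422 are the tools listed in the submitters' processing notes. No source used here names the counter, its strand setting or the annotation release. The 1 row that names no gene held 0 counts and was left out. Table coordinates of the 9 members are those of GENCODE M21, which gave exon lengths.

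Groups follow the treatment label. The test was edgeR 4.0.16 in R 4.3.3 (quasi-likelihood, robust dispersions, TMM, filterByExpr, Benjamini-Hochberg over 11389 genes at 0.05), and the procedure was tested on simulated data. The simulated counts scattered around a single mean per gene and group, without the separate levels seen among the controls. They give no measure of power for the members. Fold changes are treated minus control. DESeq2 1.42.0, limma 3.58.1 (voom with quality weights), other scalings and filters, a replicate block and leaving out libraries were alternatives. Relations used CPM of the library total with a pseudocount of 1 and exact permutation in scipy 1.17.1 under Python 3.11.15. Replicate numbers 1 to 4 occur in both groups and come from different mice. Within groups every pair of libraries differed by at least 55.2 in chi-square per gene, so none was a duplicate. Promoters and their starts are RefSeq's (GRCm38.p6).

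The members, lists and tests were chosen with earlier results of these data known. The rule for named genes took all members, the 3 tested genes of each list with the highest mean CPM per kilobase, the 10 genes most like the globin mean over 11 libraries and the 5 over the treated ones, and fixed markers. Not every gene that this rule took is reported here. Other genes named were chosen after their values were seen.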

Additional observations from a re-analysis of the deposited data

Results flagged for a closer look

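Of 36 groups of values checked for a library far from the others, 2 held one, about what chance gives (1 in 20 groups). Both concern control 2, which had the fewest globin counts, 10687. The share of Hbb-bs in beta counts was 91.9% in control 2, and the gap to the next control was 0.88 of the control range. Bpgm had 29.2 counts per 1000 globin counts in control 2, with a gap of 0.86 of the control range, and its treated libraries spanned 12.9 to 34.3.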

How the results depend on the processing

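Members' directions held in 9 of 9 under DESeq2, both other scalings, other filters and a library size without the globin genes. With the identifier letters as a covariate the values were -3.65 to -1.96. That contrast rests on treated 1 alone, the only treated library whose letters the controls share. The members' directions also held with each single library left out (median -1.73 without control 3 and -2.26 without control 4). They reversed in 9 of 9 without control 3 and control 4: 2.16 for Hba-a1, 3.06 for Hba-a2, 2.18 for Hbb-bs, 2.57 for Hbb-bt, 3.03 for Alas2, 2.37 for Fech, 5.93 for Slc4a1, 2.51 for Bpgm and 2.23 for Mkrn1. With limma-voom and quality weights 6 reversed, to 1.53 for Hba-a2, 0.035 for Hbb-bt, 0.66 for Alas2, 0.11 for Fech, 3.41 for Slc4a1 and 0.19 for Mkrn1; the cause was not tested. In no setting was a member called.

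The replicate block on libraries 1 to 4 gave Slc4a1 0.47 and a members' median of -0.48, against -2.73 for the same 8 libraries without a block, with 0 calls either way. Deviations of same-numbered libraries from their group means correlated at -0.12 to 0.02. These values gave no sign of a pairing by number, but 4 correlations cannot exclude one.

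Over all genes, 60 were called higher and 22 lower by DESeq2, and 4 higher with at least 10 counts in every library of a group, against 0 and 0. The globin share differed by -9.85 percentage points, -13.9 to -4.59 with 1 library left out and 1.92 without control 3 and control 4. By exact permutation with adjustment over 12 relations, 4 relations with Hbb-bs among treated libraries had an adjusted p below 0.05, and 0 to 4 with 1 treated library left out (1 without treated 2, treated 4 or treated 5 and 0 without treated 7). These members were selected on the same libraries, so this count supports nothing. The r with Hbb-bs then ran over -0.121 to 0.689 for Pf4, -0.108 to 0.529 for Ppbp (both below 0 without treated 7) and -0.0252 to 0.629 for Siglecf (below 0 without treated 7, or without treated 6 at -0.00482). Control 2 had 5 counts of Hba-a2 and 0 of Slc4a1, which limits those ratios, and 4 control libraries limit every contrast.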

Other observations

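Other genes of the erythroid lists had low or single-library values, named here after their values were seen. Klf1, an erythroid transcription factor, stood at 0 to 3.90 CPM in treated libraries, against 0, 0, 0 and 7.97 CPM in control 1 to control 4. Epor, the erythropoietin receptor gene, stood at 0 to 12.1 CPM in treated libraries, against 0, 0, 73.5 and 5.07 CPM in control 1 to control 4. Trim58, a ubiquitin ligase of late erythroblasts, stood at 0 to 2.35 CPM in treated libraries, against 0, 0, 11.6 and 22.1 CPM in control 1 to control 4. Car1, a red cell carbonic anhydrase, had 22.6 CPM in treated 4 and 0 in the other 10 libraries.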
